A study of Mus musculus with 16 samples.

Results

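The probes described here carry the names of macrophage genes of the complement, adaptor and receptor classes, and their RNA was measured in spleen and thymus of EMP3 mutant mice. EMP3 is a small membrane protein that binds P2X7, an ATP-gated channel of macrophages. The members were chosen by gene symbol from a list of 10 genes, and 7 of these genes had a probe in the platform annotation used here, with 1 probe each, among the 9030 genes and 20794 probes of the array. They were the complement genes C1qa, C1qb and C1qc, the adaptor genes Tyrobp and Fcer1g, and from the receptor class Marco and Vcam1. Csf1r, Adgre1, Mpeg1 and the P2X7 gene P2rx7 were named at no probe there.

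Each two-colour array compared RNA of 1 EMP3 mutant mouse with a pool of wild-type RNA of the same tissue, which carried the other dye. The mutants were 4 males aged 17 weeks, each of which gave spleen and thymus, and each RNA was put on 2 arrays with the dyes exchanged, which makes 16 arrays. The channel labels list 4 wild-type males of the same age in the pool, whereas the protocol text speaks of 6. The tissue of each array follows its sample labels, although the title and design text of the series name brain in place of spleen. The kind of mutation and the strain are not given in the labels. Values are log2 ratios of mutant over pool, so 0 stands for equal signal. The log base and this direction were read from the values and the design text and are not stated; with the pool as numerator, every sign below turns. Both arrays of a mouse were averaged into 1 replicate. The thymus pair of mouse 2, whose arrays mirrored each other almost exactly (r = -0.922 across probes), entered no test, which leaves n = 4 mice in spleen and n = 3 in thymus. The thymus pairs that were kept also correlated below 0, at -0.44, -0.36 and -0.25 in mice 1, 3 and 4. Spleen pairs correlated at 0.05, 0.32, 0.08 and 0.42 in mice 1 to 4. The targeted gene itself, Emp3, was at 0.20 ± 0.25 and 0.27 ± 0.38 (SD, n = 4) at its 2 probes in spleen and at -0.04 ± 0.10 and 0.05 ± 0.05 (SD, n = 3) in thymus, with limma adjusted p of 0.204, 0.214, 0.886 and 0.866, none past the threshold. Which part of the transcript these probes cover is not known here, so they are no check of the genotype. The gene names themselves are uncertain. They were taken from the platform annotation by probe ID, and probes of 1 gene did not share their spleen ratios: across 4431 pairs of probes of 1 gene that lie more than 400 IDs apart, Spearman's rho was 0.00, and of the 284 pairs with both probes past the threshold, 144 had 1 direction. Over the 98 such pairs of genes in the lists used below, rho was -0.08. Whether the annotation belongs to these row IDs was not settled, so every value below is that of the probe that carries the name and may not be that of the gene. A ratio holds no expression level, so neither the tissue nor its macrophage content could be checked against defining markers, and fewer cells of a type cannot be told apart from less RNA per cell.

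C1q is the recognition molecule of the classical complement pathway. It is assembled from A, B and C chains, the products of C1qa, C1qb and C1qc, and tissue macrophages are its main source. TYROBP (also called DAP12) and FCER1G (the Fc receptor gamma chain) are small transmembrane adaptors that carry an ITAM, a tyrosine motif, and pass signals from ligand-binding partner receptors to the kinase SYK. MARCO is a scavenger receptor of marginal zone macrophages of the spleen. VCAM1 is an adhesion molecule that red pulp macrophages and stromal cells display and that binds the integrin of ITGA4 and ITGB1.

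The 3 C1q genes are direct neighbours on mouse chromosome 4, and RefSeq (GRCm38.p6) places 0 other genes between them. The promoter windows of C1qb and C1qc are shown because the probes of these neighbours moved in opposite directions in spleen, and that of Fcer1g because its probe moved in the direction of C1qc. The windows run from 250 bases before to 50 bases after the start, and 4 of the 7 member genes had one in the RefSeq promoter table (build GRCm38.p6). They lie at chr4:136886151-136886450 for C1qb, chr4:136892865-136893164 for C1qc and chr1:171234300-171234599 for Fcer1g, all on the minus strand. Capitals mark GAGGAA, a core bound by PU.1, the myeloid ETS factor, or TTCCTC, the same letters on the other strand.
C1qb: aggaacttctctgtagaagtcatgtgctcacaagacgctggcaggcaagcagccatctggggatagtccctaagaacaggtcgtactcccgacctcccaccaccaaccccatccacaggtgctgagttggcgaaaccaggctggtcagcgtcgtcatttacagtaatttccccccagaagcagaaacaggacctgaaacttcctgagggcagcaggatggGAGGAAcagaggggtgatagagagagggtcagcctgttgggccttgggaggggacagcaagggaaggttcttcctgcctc
C1qc: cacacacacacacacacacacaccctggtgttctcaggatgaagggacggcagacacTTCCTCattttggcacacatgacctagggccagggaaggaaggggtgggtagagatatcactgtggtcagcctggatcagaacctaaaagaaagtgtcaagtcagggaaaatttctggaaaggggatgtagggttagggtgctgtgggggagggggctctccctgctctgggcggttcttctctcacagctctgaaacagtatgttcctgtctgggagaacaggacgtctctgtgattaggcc
Fcer1g: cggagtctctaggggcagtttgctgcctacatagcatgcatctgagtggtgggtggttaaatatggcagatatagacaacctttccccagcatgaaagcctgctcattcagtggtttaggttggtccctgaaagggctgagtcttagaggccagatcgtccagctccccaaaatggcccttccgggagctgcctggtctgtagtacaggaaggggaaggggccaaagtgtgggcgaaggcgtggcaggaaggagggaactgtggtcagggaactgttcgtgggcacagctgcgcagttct
C1qb held 1 match, 30 bases before the start, and C1qc held 1 match on the other strand, 193 bases before it. No match lay in the Fcer1g window. The Marco window, which is not shown, held 1 match, 146 bases before the start. Of 32851 windows of 300 bases in the table, 28.3% held the motif on either strand, so these matches describe the windows and no more.

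In spleen, the comparison of mutants with the pool gave opposite directions within the C1q chains. C1qc rose by 0.63 ± 0.11 on the log2 scale (SD, n = 4), or 1.55-fold, while C1qb was lower at -0.42 ± 0.05 (SD, n = 4), or 1.34-fold lower. The pair of adaptors split as well: Tyrobp was lower at -0.52 ± 0.10 (SD, n = 4), or 1.43-fold lower, and Fcer1g was higher at 0.26 ± 0.13 (SD, n = 4). C1qa and both receptor class probes did not pass the threshold, an adjusted p of 0.05 in limma. Thus 4 of 7 member probes passed, 2 in each direction, where 25.3% of the 20127 probes tested in spleen passed, 13.4% of them higher and 11.9% lower. With 7 probes, this share is given as a count only.

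**Figure D1:**
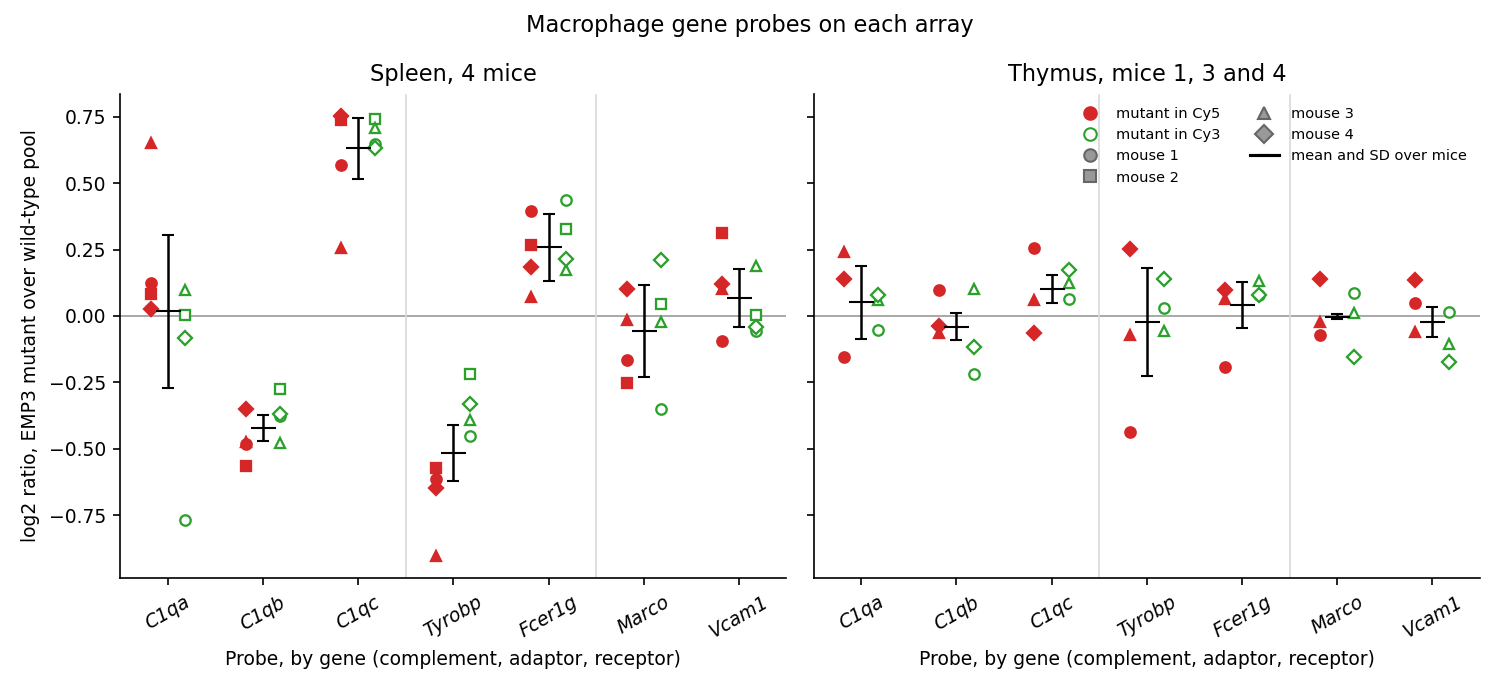
Log2 ratio of EMP3 mutant over wild-type pool (y axis) for the 7 probes (x axis), with 1 symbol per array, filled for the mutant in Cy5 and open for the mutant in Cy3, in spleen (left) and thymus (right, without mouse 2); black bars give the mean and SD over mice. C1qb and Tyrobp lie below 0 and C1qc and Fcer1g above 0 on all 8 spleen arrays, and the thymus means lie between -0.04 and 0.10.

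Among the complement probes, C1qb was the steadiest. Its spleen log2 ratio was -0.43, -0.42, -0.48 and -0.36 in mice 1 to 4, and the single arrays ran from -0.57 to -0.27. All 4 mice were below 0, as at 20.7% of probes, and so were all 8 arrays, as at 10.3%. In limma the adjusted p was 0.00631. C1qc was at 0.61, 0.74, 0.48 and 0.69 in mice 1 to 4, with all 4 mice above 0, as at 27.7% of probes, all 8 arrays above 0, as at 8.92%, and an adjusted p of 0.00410 in limma. The lowest C1qc array, mouse 3 with the mutant in Cy5, was at 0.26, and the other 7 were at 0.57 or more. Only 1.58% of all probes tested in spleen had a mean as high as that of C1qc, whereas 8.31% were as low as C1qb. C1qa had no common direction: the mice were at -0.32, 0.04, 0.38 and -0.03, and the mean was 0.02 ± 0.29 (SD, n = 4; limma adjusted p = 0.927, 95% interval -0.27 to 0.30). The C1qa arrays farthest from 0 were those of mouse 1 with the mutant in Cy3, at -0.77, and of mouse 3 with the mutant in Cy5, at 0.65, and the other 6 lay between -0.08 and 0.12. The C1qa means also differed by dye, at 0.22 with the mutant in Cy5 and -0.19 in Cy3, a wider gap than at any other member, although the dye sets overlapped.

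The distance between the C and B chain probes was alike in every mouse. C1qc minus C1qb was 1.04, 1.16, 0.96 and 1.05 in mice 1 to 4, a mean of 1.05 ± 0.08 (SD, n = 4), or 2.07-fold between the ratios. C1qa lay between them in all 4 mice, from 0.11 to 0.85 above C1qb and from 0.11 to 0.93 below C1qc. The 4 member probes past the threshold were also the 4 of 7 with 1 sign on all 8 arrays, where 19.2% of probes had 1 sign on all arrays and 48.3% in all mice. These shares are over probes with a value on all 8 arrays, called or not. The calls and the signs come from the same arrays, so the signs are no separate support. The distances between chains describe probes whose separate values were already known to differ, and they carry no test.

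The adaptors were apart in every mouse too. Tyrobp was at -0.53, -0.395, -0.65 and -0.49 in mice 1 to 4 (limma adjusted p = 0.00534), with 8 of 8 arrays below 0. Its arrays differed by dye: those with the mutant in Cy5 ran from -0.90 to -0.57 and those with the mutant in Cy3 from -0.45 to -0.22, so the dye sets did not overlap, and the difference of their means, Cy5 minus Cy3, was -0.34. Each dye set alone was below 0. Fcer1g was at 0.42, 0.30, 0.12 and 0.20 (limma adjusted p = 0.0471), with all 8 arrays above 0 between 0.07 and 0.44. Fcer1g minus Tyrobp was between 0.69 and 0.95 over the mice, with a mean of 0.77 ± 0.12 (SD, n = 4).

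Neither receptor class probe passed. Marco was at -0.26, -0.10, -0.02 and 0.16 in mice 1 to 4, with a mean of -0.06 ± 0.17 (SD, n = 4) and an adjusted p of 0.649 in limma (95% interval -0.26 to 0.15). Vcam1 was at -0.08, 0.16, 0.15 and 0.04, with a mean of 0.07 ± 0.11 (SD, n = 4) and an adjusted p of 0.509 in limma (95% interval -0.10 to 0.23). The mice of each probe lay on both sides of 0, and neither interval reached the mean of any member probe that passed.

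The mean over the complement probes was 0.08 ± 0.08, over the adaptor probes -0.13 ± 0.10 and over the receptor class probes 0.01 ± 0.12 (SD over 4 mice). Inside the complement class the probe means spanned -0.42 to 0.63, inside the adaptor class -0.52 to 0.26 and inside the receptor class -0.06 to 0.07. The adaptor mean was below 0 in all 4 mice, at -0.06, -0.05, -0.26 and -0.14, and lower than the complement mean in each, which was at -0.05, 0.12, 0.13 and 0.10. The median over the 7 probes was 0.02, beside 0.04 over all probes tested. The 7 probes thus lay on both sides of 0 and of the median of all probes.

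**Figure D2:**
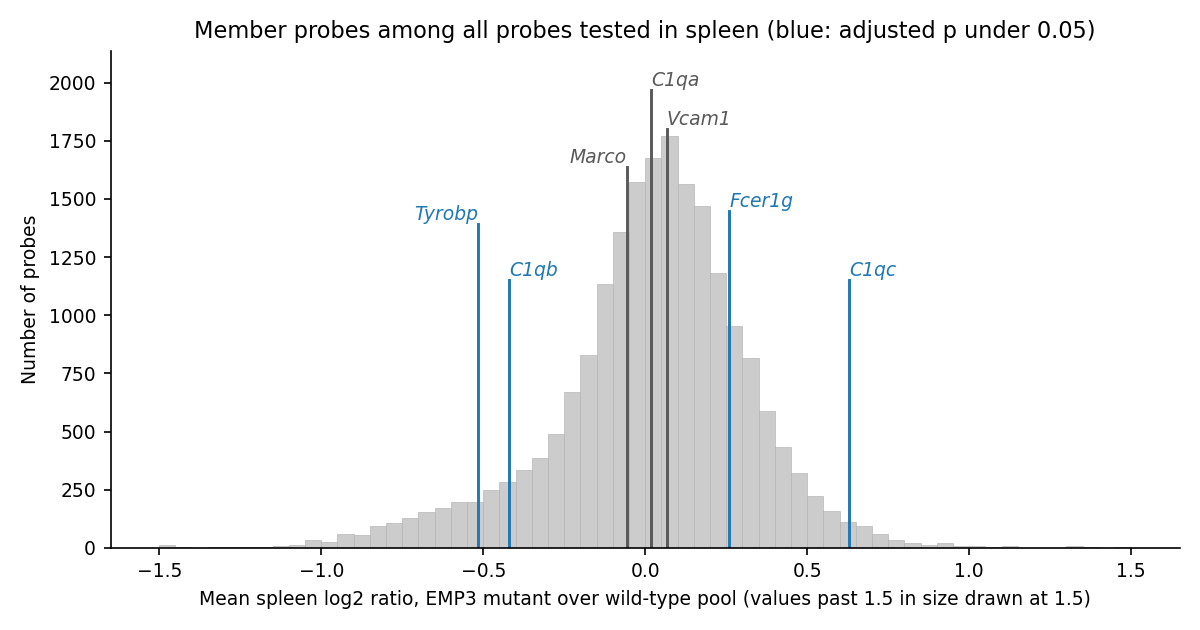
Histogram of the mean spleen log2 ratio (x axis) of the 20127 probes tested (y axis, number of probes), with vertical lines at the 7 member probes, blue where the adjusted p in limma was under 0.05; the heights of the lines carry no value. C1qb and Tyrobp lie in the lower flank and C1qc in the upper flank, while C1qa, Marco and Vcam1 lie near the centre.

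Fcer1g was the least firm of the calls. Without any 1 of the 4 mice its adjusted p in limma was 0.0911, 0.147, 0.0535 and 0.116, with ratios from 0.21 to 0.30. The other 3 probes passed without each mouse, and with the variance of the pool added. That variance was not measured: it was set as if the pool held 4 mice that vary as the mutants do. That the deposited signs need no further turning for the dye exchange is itself a reading: with the Cy3 arrays turned, 0 of 7 members passed in spleen, and 1 of 20127 probes did. Under that reading C1qc was at -0.05 and Fcer1g at -0.03, Tyrobp at -0.17 and C1qb at -0.05. Taken as deposited, spleen arrays of different mice correlated at 0.24 to 0.63 across probes where they shared the mutant's dye and at 0.01 to 0.42 where they did not. The pool was 1 control RNA on every array of a tissue, so the test leaves out the spread of the wild-type mice. An exact sign-flip test over 4 mice cannot go below p = 0.125 and was not used.

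Probes with neighbouring IDs shared part of their ratio, and what the IDs stand for on the array is not known here. A running median of the log2 ratio over neighbouring probe IDs was 0.24 at Marco, -0.15 at Tyrobp and -0.14 at C1qa, and between -0.09 and 0.08 at the other 4 members. With this median removed, Marco was at -0.29 and passed the threshold (limma adjusted p = 0.0449). That made 5 of 7, where 19.7% of all probes tested in spleen passed. C1qb was then at -0.33, C1qc at 0.55, Tyrobp at -0.37 and Fcer1g at 0.31, and each passed. For the difference between spleen and thymus described below, Tyrobp then missed the threshold, at -0.36 (limma adjusted p = 0.0816). C1qb and C1qc passed, 2 of 7, where 10.5% of all probes tested did. What part of the member ratios goes with the ID was not tested.

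**Figure D3:**
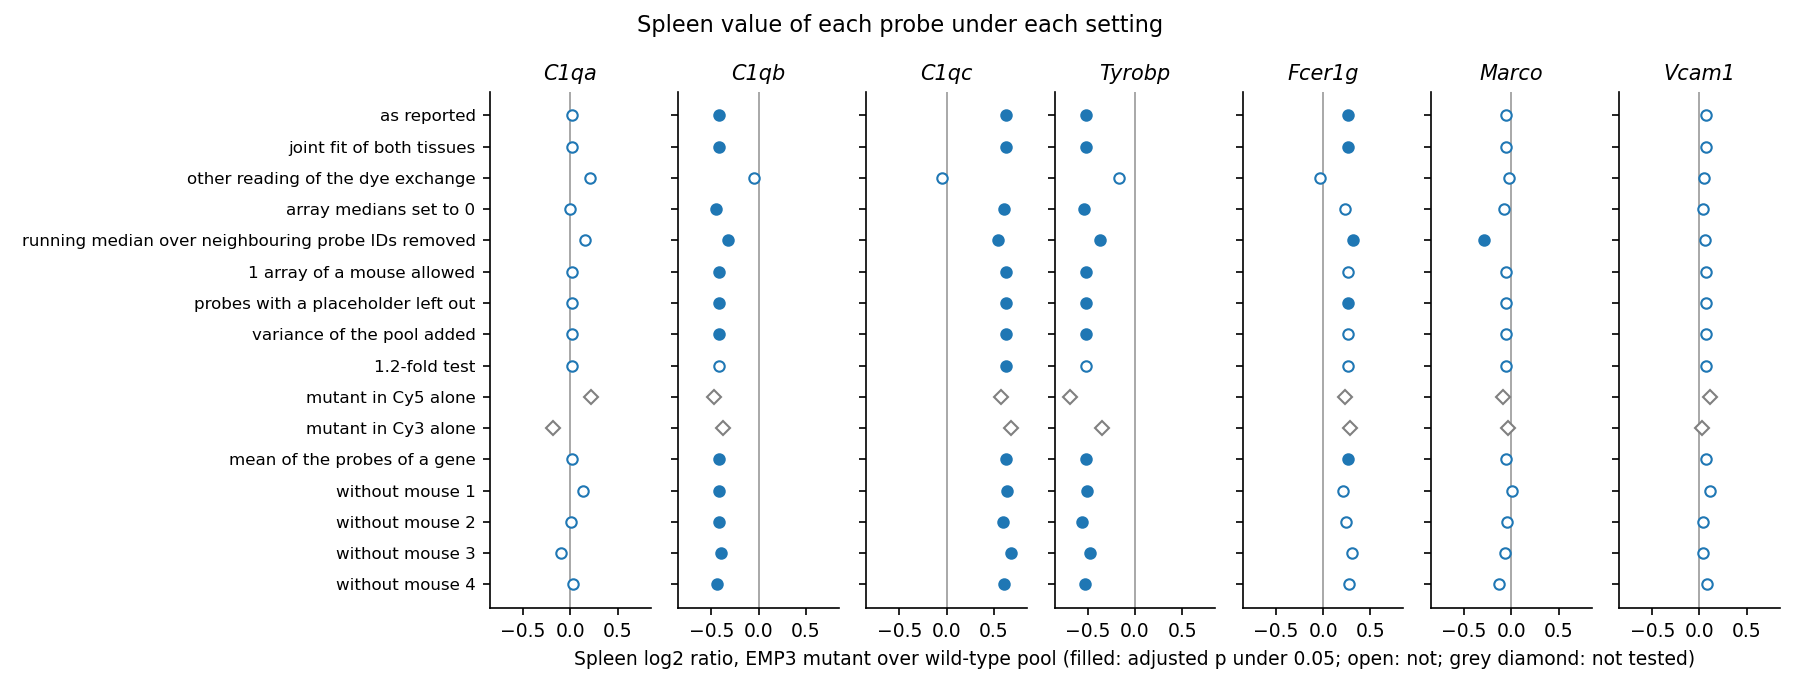
Spleen log2 ratio (x axis of each panel) of the 7 probes under each setting (y axis), filled where the adjusted p in limma was under 0.05, open where it was not, and as grey diamonds for 1 dye orientation without a test. C1qb, C1qc and Tyrobp keep their side of 0 except that C1qc is at -0.05 with the Cy3 arrays turned, and C1qa lies on both sides of 0.

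In thymus, no member passed, and the ratios were small. C1qc was at 0.16, 0.09 and 0.06 in mice 1, 3 and 4, a mean of 0.10 ± 0.05 (SD, n = 3), and had the smallest p of the members in limma (unadjusted p = 0.0736, adjusted p = 0.866). It was above 0 in all 3 mice, as were 16.1% of probes. It was the 1 member of 7 with 1 sign in all 3 thymus mice, which 27.6% of probes had. C1qb was at -0.06, 0.02 and -0.08, with a mean of -0.04 ± 0.05 (SD, n = 3), and C1qa at -0.11, 0.15 and 0.11, with a mean of 0.05 ± 0.14 (SD, n = 3). Tyrobp was at -0.20, -0.06 and 0.20, with a mean of -0.02 ± 0.20 (SD, n = 3), so its mice lay on both sides of 0. Fcer1g was at -0.06, 0.10 and 0.09, with a mean of 0.04 ± 0.09 (SD, n = 3). Marco was at 0.01, -0.01 and -0.01, and Vcam1 at 0.03, -0.08 and -0.02. The spread of Marco over single thymus arrays, from -0.16 to 0.14, was far wider than that over its mouse means, since the dye-exchanged arrays of a mouse lay on opposite sides of 0. Limma called 0 of 20130 probes in thymus (0%), and 725 had an unadjusted p under 0.05, none of them a member. The 95% intervals were -0.16 to 0.08 for C1qb, -0.01 to 0.22 for C1qc and -0.23 to 0.18 for Tyrobp, so the spleen sizes lie outside them. The interval of Fcer1g, -0.09 to 0.17, also stops short of its spleen mean. These intervals leave out the error of the spleen means, so they are no test of a difference between tissues. In that test, described below, Fcer1g did not pass, and no member passed with the mouse as a block. Thymus arrays of different mice correlated at 0.14 to 0.39 across probes where they shared the mutant's dye, but at -0.32 to -0.14 where they did not. The dye therefore moved with the thymus values, and its part in them was not tested. Both arrays of a thymus mouse also correlated below 0, as given above, so their mean cancels what differs in sign between them. How far this made the thymus means and their SDs small was not tested.

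Whether the mutant ratio differed between spleen and thymus was asked in 1 fit of both tissues, which gave them a shared spread and left out the pairing of the mice. C1qc was higher in spleen by 0.53 ± 0.09 (SE), while C1qb was lower there at -0.38 ± 0.07 (SE) and Tyrobp at -0.49 ± 0.11 (SE), with adjusted p of 0.00875, 0.0134 and 0.0240 in limma. These 3 of 7 members passed, where 13.9% of 19948 probes did, 5.91% of all with the higher ratio in spleen and 8.04% with the lower. Within the mice used in both tissues, spleen minus thymus was 0.45, 0.39 and 0.64 for C1qc, -0.37, -0.49 and -0.28 for C1qb and -0.33, -0.58 and -0.69 for Tyrobp, each on 1 side of 0. For Fcer1g the difference was 0.22 ± 0.09 (SE; adjusted p = 0.170), and for C1qa, Marco and Vcam1 it was -0.03, -0.05 and 0.09 (adjusted p = 0.910, 0.770 and 0.534). With the mouse as a block, since the same animals gave both tissues, 0 of 7 passed (adjusted p in limma 0.0967 for C1qb, 0.0636 for C1qc and 0.0641 for Tyrobp), with differences of -0.38, 0.49 and -0.53. Without mouse 3 or without mouse 4, 0 of 7 passed as well, and 10 and 0 of all probes did; with the variance of the pools added it was 0 of 7.

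The other genes of these pathways were examined in 8 lists, without the members. Together the lists held 141 annotated genes with 203 probes tested in spleen, of which 22 were higher and 32 lower past the threshold. That is 26.6%, near the 25.3% of all probes, so the lists did not stand out in their number of calls. Their median log2 ratio was 0.02, beside 0.04 over all probes. The genes named from the lists as higher or lower had adjusted p between 0.00401 and 0.0478 in limma. In thymus 0 of 201 passed.

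In the complement cascade and its regulators, 6 of 23 probes were lower and 0 higher, with a median of -0.10. Cd93, a receptor of myeloid and endothelial cells once described as a C1q receptor, was at -0.67 ± 0.05 (SD, n = 4), Mbl2, a mannose-binding lectin of the lectin pathway, at -0.63 ± 0.15 (SD, n = 4) and Cd55, which speeds the decay of the C3 convertases, at -0.54 ± 0.21 (SD, n = 4). After removal of the running median 4 were lower, and Cd93 was at -0.10 and did not pass (limma adjusted p = 0.320). Among the partners and kinases of the ITAM adaptors, 6 of 35 probes were higher and 1 lower, with a median of 0.11. Fcgr2b, the inhibitory Fc gamma receptor, was higher at 0.61 ± 0.16 (SD, n = 4), and Fcgr1, the high-affinity receptor that needs FCER1G, was lower at -0.55 ± 0.17 (SD, n = 4). Vav1, an exchange factor that acts below SYK, was at 0.43 ± 0.06 and the SRC family kinase Fyn at 0.43 ± 0.14 (SD, n = 4), both past the threshold.

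Of the ligands and adhesion partners, 2 of 22 probes were higher and 4 lower. The integrin chains Itgb7, at 0.35 ± 0.08, and Itgb1, at 0.29 ± 0.07 (SD, n = 4), were higher. Itgb1 had other probes that did not pass, among them those at -0.083, 0.006 and -0.083. The colony-stimulating factors Csf3, at -0.85 ± 0.07, and Csf2, at -0.76 ± 0.25, and the selectin Selp, at -0.95 ± 0.18 (SD, n = 4), were lower. Of the scavenger and phagocytic receptors, 2 of 35 probes were higher and 8 lower, among them Lrp1, an endocytic receptor, at -0.79 ± 0.16, and Mrc2, a collagen receptor, at -0.41 ± 0.07 (SD, n = 4). A probe of the scavenger receptor Stab1 was higher at 0.30 ± 0.17 (SD, n = 4), while another Stab1 probe was at -0.15 and did not pass. Scara3 was called in both directions by different probes, at 0.40 and at -0.54.

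Of the macrophage transcription factors, 3 of 14 probes were higher, namely Runx1 at 0.58, Id3 at 0.49 and Irf5 at 0.40, and 3 were lower, namely Tfe3 at -0.63, Pparg at -0.44 and Zeb2 at -0.36. Of the genes for iron and heme handling, a task of red pulp macrophages, 4 of 23 were higher, with the biliverdin reductase Blvrb at 0.54, the ferritin light chain Ftl1 at 0.41 and the iron transporter Slc11a2 at 0.32. The 3 lower ones were Ireb2 at -0.60, Hfe at -0.48 and Hp, haptoglobin, at -0.41. Of the lysosome and phagosome genes, 5 of 30 probes were higher and 6 lower, with the cathepsins Ctsb at 0.72 and Ctsz at 0.47 and the hexosaminidase chain Hexa at 0.37 on one side. On the other side lay Cyba, a subunit of the phagocyte NADPH oxidase, the lowest probe of the 8 lists, the tetraspanin Cd63 at -0.57 and the cathepsin Ctsd at -0.33. Of the P2X7 and inflammasome genes, 2 of 22 probes were lower and 0 higher: the cytokine Il18 at -0.67 and the ectonucleotidase Entpd1, which breaks down ATP, at -0.26. P2rx7 itself was not analysed here.

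**Figure D4:**
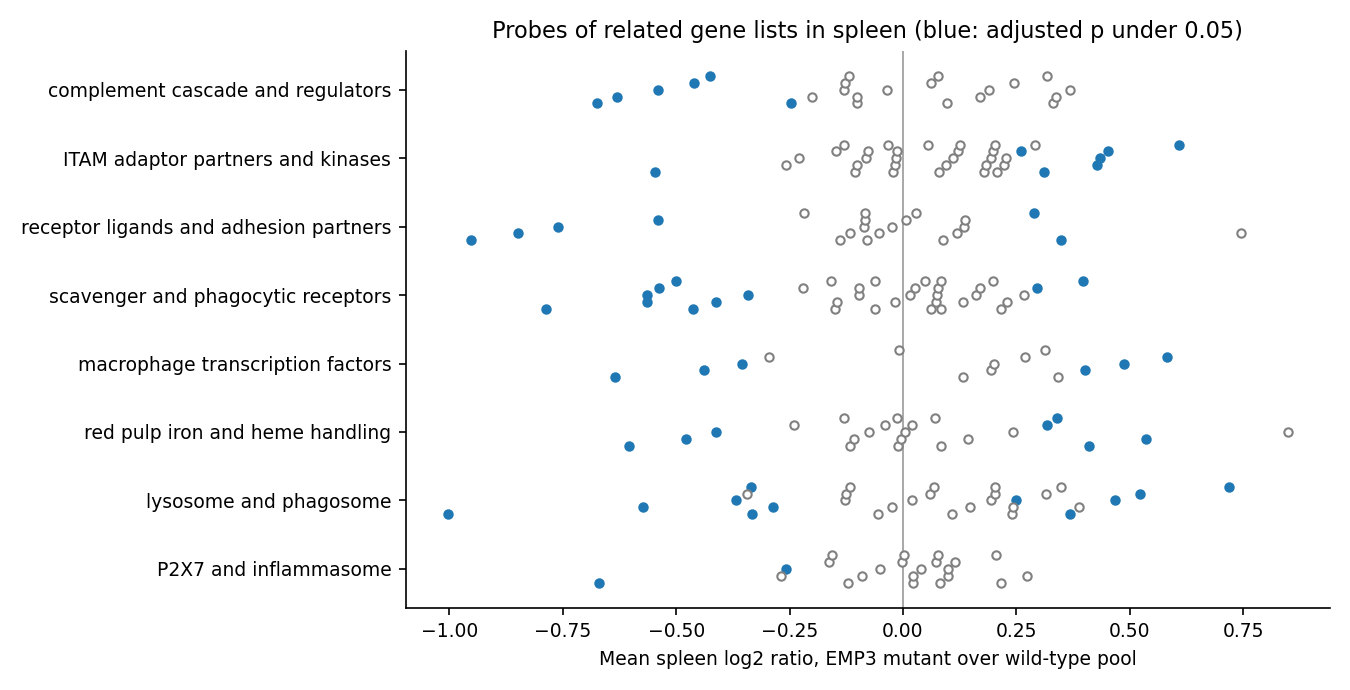
Mean spleen log2 ratio (x axis) of each probe of the 8 related lists (y axis), without the members, blue where the adjusted p in limma was under 0.05; the vertical offset inside a list carries no value. Every list but the complement and P2X7 lists has called probes on both sides of 0.

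A band of probe IDs moved with the lower calls of these lists. Of the 21 lower probes named by the rule in the 8 lists, 9 lay among the last 575 probes by ID, a band set after the values were seen. In that band the median spleen log2 ratio was -0.43 and 55.8% were called lower, against a median of 0.05 and 10.6% at the other 19552. With the running median removed, 5 of the 21 missed the threshold, namely Cd93, Pparg, Ireb2, Hfe and Entpd1, and of the higher ones Itgb7, Stab1 and Hexa did. No member lies in that band.

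Markers of other cells were examined in 10 lists, in which 3 of 62 probes were higher and 9 lower in spleen, 19.4% against 25.3% of all probes. Other macrophage markers had 0 of 5 probes past the threshold and a median of -0.05, with means per mouse from -0.14 to 0.17. Neutrophil markers had 3 of 12 lower and 0 higher, including the granule enzymes Mpo at -0.58 and Elane at -0.385, with means per mouse from -0.25 to 0.04. Erythroid markers had 2 of 8 lower, the globin Hba-a1 at -0.52 and the factor Klf1 at -0.26, with means per mouse from -0.39 to 0.11. T cell markers had 1 of 8 higher, Cd2 at 0.41, and 2 lower, Cd28 at -0.82 and Cd5 at -0.95. Their means per mouse ran from -0.46 to -0.03. The Cd5 mice differed widely (SD 0.73, n = 4), with 1 of them above 0 and an adjusted p of 0.0454 in limma. For NK cells the granzyme Gzma was higher at 0.45 with its only probe, and for stroma and endothelium Cdh5 was lower at -0.72, 1 of 9 probes. Cd28, Cd5 and Cdh5 lie in the band of last probe IDs described above, where 55.8% of probes were called lower. Thymic epithelial genes had Psmb11 higher at 0.55 and Aire lower at -0.54 among 8 probes. B cell (4 probes), dendritic cell (5) and cortical thymocyte (2) markers had 0 past the threshold. After removal of the running median, Cd2, Cd5 and Klf1 missed it, while 1 of the 5 other macrophage probes was higher, 1 dendritic cell and 1 cortical thymocyte probe were lower, and 1 stroma and endothelium probe was higher. The part of cell makeup in the member ratios was not tested.

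Each member had 1 probe, so none could be set against a second probe of its gene. By likeness over 14 arrays, the probes with the highest Pearson correlation to C1qb were those of Grin2a (0.95), Lrch4 (0.94) and Hoxc8 (0.94), and to Tyrobp those of Smpdl3b (0.96), Cables1 (0.96) and Il6st (0.94). All 6 had spleen ratios below 0, from -0.81 to -0.35. C1qb and Tyrobp were lower in spleen than in thymus, so probes picked by correlation over both tissues tend to be low in spleen too. Grin2a and Hoxc8 also lie in the band of last probe IDs described above. The arrays of 1 mouse and 1 pool are not independent points.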

How the data were processed

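RNA of spleen and thymus was hybridised to two-colour arrays with dye exchange, using indirect Cy3 and Cy5 labelling per the labels' protocols. The authors' deposited values are log ratios, read here as log2. The scanner, background correction and normalization behind them are not stated in the labels. No intensities were used. The number of mice limits the precision, and the intervals leave out the spread of the wild-type mice. A constant of 15.1 to 16.9 in size, which stood in place of a value at 25 to 137 probes of an array, was set to missing. It was positive on every array with the mutant in Cy5 and negative on every array with the mutant in Cy3. This bears on whether the Cy3 arrays were already turned, but how the constant arose is not stated and was not tested.

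A mouse had a value where both its arrays did, and a probe was tested with at least 3 mice. Each tissue was fitted alone with limma 3.58.1 in R 4.3.3 (ratio against 0, moderated statistics, Benjamini-Hochberg adjustment over all probes); the difference between tissues came from 1 fit of both. Tissues were fitted alone because the median SD between mice was 0.157 in spleen and 0.085 in thymus. On simulated data the fits recovered 38 (spleen), 63 (thymus) and 41 (difference) of 100 probes changed by 0.5, and 84, 91 and 91 of 100 changed by 1. Of the calls made there, 1.61%, 3.75% and 6.38% were false. The simulation held independent mice, few changed probes, no dye effect and no spread of the pool, so it does not give the recovery in these data. Mice pair the tissues as the same animals gave both; their deviations correlated at -0.057, -0.001 and -0.076. Members and gene lists were chosen with earlier results of these data known. Named were all members, Emp3, and from each related list up to 3 probes per direction (cell type lists 2) past the threshold in spleen by smallest p; likeness was fixed for C1qb, Tyrobp and Csf1r. All 7 member symbols matched the RefSeq symbol of their annotated accession, which does not show that the annotation belongs to the row IDs. Alternatives are given in the closing section.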

Additional observations from a re-analysis of the deposited data

Results flagged for a closer look

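For 3 members the ratio differed between spleen and thymus by a test of the difference itself in limma: C1qb at -0.38 (spleen minus thymus), C1qc at 0.53 and Tyrobp at -0.49, with adjusted p of 0.0134, 0.00875 and 0.0240. That fit gave both tissues 1 shared spread and left out the pairing of the mice. With the mouse as a block none of the 3 passed, at adjusted p of 0.0967, 0.0636 and 0.0641 in limma. Over the alternatives the adjusted p ran from 0.00223 to 0.958 for C1qb, from 0.00141 to 0.986 for C1qc and from 0.00574 to 0.958 for Tyrobp. No member had a spleen mouse far from the other 3 by Dixon's ratio, whose largest value, 0.522 at C1qb, was under its 95% critical value.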

How the results depend on the processing

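In spleen, 4 of 7 members passed, and the count was 3 to 5 except under 2 alternatives. It was 1 in the 1.2-fold test, where only C1qc passed, and 0 with the Cy3 arrays turned. There C1qc was at -0.0515 and Fcer1g at -0.02925, both turned in sign. Turning averages the Cy5 value with the negative of the deposited Cy3 value, so it keeps only the difference between the dye sets. As deposited, Cy5 minus Cy3 was -0.103 for C1qc and -0.0585 for Fcer1g. Leaving out each mouse gave 3 in every case, with medians over the members of -0.07 to 0.11. Of 13 alternatives with a test, C1qc passed in 12, C1qb and Tyrobp in 11, Fcer1g in 4 and Marco in 1. In thymus the count was 0 throughout, and leaving out each mouse moved the median from -0.002 to between 5e-04 (without mouse 4) and 0.06575 (without mouse 1). For the difference between tissues, 3 passed and leaving out each mouse gave 0 to 3, and removal of the running median over probe IDs 2, without Tyrobp. The count was 0 with the replicate block, with the variance of the pool added, in the 1.2-fold test and with the Cy3 arrays turned, where C1qc was at -0.0333333. Of 105 spleen, 105 thymus and 91 difference values of single members, 6, 14 and 7 changed sign. Over all probes, 5086 passed in spleen, against 7646 in the joint fit of both tissues, 1689 with the variance of the pool added, 887 in the 1.2-fold test, 1 with the Cy3 arrays turned and 2351 to 4867 without a mouse; for the difference 2781 passed, against 601 with the replicate block, 267 with the pool's variance, 4 in the 1.2-fold test, 4553 with thymus mouse 2 kept, and 0 to 2260 without a mouse. A filter on dim probes was not run, as no intensities were used.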

Other observations

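The mirrored thymus pair of mouse 2, which entered no test, gave means between 0.01 and 0.03 at all 7 members. In this pair the sum of both arrays lay within 0.01 of its median at 83.5% of probes. Such means are largely fixed by the mirroring, so they do not show whether the members changed in this mouse.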
